A study of Mus musculus with 6 samples.

Results

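The genes described here are the ephrin ligands, their Eph receptors, the netrins and the netrin receptors, in epithelial cells sorted from the developing mouse prostate. They were taken by name from the array's annotation, as every gene called Epha, Ephb, Efna or Efnb with a number and as Ntn1, Ntn4, Ntng1, Ntng2, Dcc, Neo1 and Unc5a to Unc5d. The names gave 45 probes of 32 genes, of 55681 probes of 21727 genes on the array. Of these, 32 probes of 28 genes were bright enough to test, against 37005 probes of 15853 genes overall. Lin- Sca-1+ CD49f+ (LSC) cells, which lack the blood and endothelial antigens Ter119, CD31 and CD45, were isolated from prostates of untreated male FVB/N mice at 6 days of age. All mice carried the 11.5kb-GFP transgene, in which the s-SHIP promoter drives GFP, and the LSC cells were separated by sorting into a GFP+ and a GFP- population. There were 3 arrays for each population, each hybridised with a single colour, and how many animals stood behind a sample was not given in the sources used here. The GFP- cells thus came from the same transgenic mice and were separated from the GFP+ cells by GFP alone, so that the comparison asks which guidance genes differed with the activity of that promoter.

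Eph receptors are receptor tyrosine kinases that bind ephrins held on the surface of a neighbouring cell, and signals can run into both cells. Ephrin-A proteins are tied to the membrane by a lipid anchor and ephrin-B proteins cross it, and the receptors are sorted into EphA and EphB by which ligands they mainly bind. Netrins are laminin-related proteins that guide axons and also act in branching epithelia. DCC and neogenin are usually the receptors for attraction and the UNC5 proteins those for repulsion, and DCC and UNC5 are also known as dependence receptors, which can trigger cell death without ligand.

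A difference on these arrays is one between sequences captured by 60-base probes, and 3 sets of probe ends carry the results below. Shown first are the last 30 bases of the brightest probe of each gene that passed the test, as given by the array design.

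Epha3: ctgttgaacaatccacttacatgtaccaac
Epha7: ccagactatgcgggcacaaatgttgcattt
Unc5b: aatagtctttagcattcctcttgtaacaag
Unc5d: aactagttcttggtacctcaccttcatccc

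On build mm9 these probes lay at chr16:63545155-63545214 on the minus strand for Epha3, chr4:28891069-28891128 on the plus strand for Epha7, chr10:60225398-60225457 on the minus strand for Unc5b and chr8:29762589-29762648 on the minus strand for Unc5d. No gene annotation of that build was used, so the exon or UTR of a probe is not stated. The next set holds the other Epha7 probes, which were annotated to another RefSeq transcript of the gene than the brightest one and lay upstream of it at chr4:28869764-28869823 and chr4:28873570-28873629.

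Epha7, dimmer probe: agggaccatcatcttggtgttcatggtgtt
Epha7, dimmest probe: cattgttctgagagcagtacgatttcatgg

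The third set shows where a probe held a repeat. Capitals mark an unbroken run of TG, which reached 20 bases in the Epha5 probe at chr5:84487348-84487407 and 33 bases in the Ephb3 probe at chr16:21223165-21223224, and the other Epha5 probe, at chr5:84483837-84483896, is given beside them.

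Epha5, repeat probe: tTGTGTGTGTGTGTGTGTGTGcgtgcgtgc
Ephb3, repeat probe: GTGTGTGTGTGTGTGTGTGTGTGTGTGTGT
Epha5, other probe: tttgtgtacatgtttttgtagtgtaagata

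On each array 36651 to 42123 probes rose well above background, none of them saturated. In all that follows a level is log2 of the processed signal minus the log2 of its array's 75th percentile, a difference is LSC GFP+ minus LSC GFP- on that scale, and levels are compared only within a probe. Of the basal markers, all 12 that were tested had higher means in LSC GFP+ cells and 7 passed the test, among them Krt5 and Krt14. Trp63, which did not pass, was read at a probe with a simple repeat. Markers of smooth muscle went the other way, with 7 of 8 lower in the test and a median difference of -1.60. Their summed signal was 7.65 to 11.1 times the 75th percentile in LSC GFP+ cells and 21.4 to 40.5 times in LSC GFP- cells, without overlap. Of 10 stromal markers 6 passed the test, 5 lower and 1, Dcn, higher. The calls were 58.3% of the basal, 87.5% of the smooth muscle and 60% of the stromal markers, beside 9.34% of all genes tested. In sorted bulk RNA, fewer cells of a type and less RNA per cell cannot be told apart.

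The methods of the study name a p under 0.05 as the threshold and mention no adjustment. At an unadjusted p under 0.05, 4 of the 28 tested guidance genes passed at their brightest probe. Epha7 and Unc5d were higher in LSC GFP+ cells, and Epha3 and Unc5b were lower. This was 14.3% of the genes, beside 9.34% of all genes tested (4.55% higher and 4.79% lower), so the share of calls was near that of the array as a whole and the results are those of single genes. By probe, 5 of 32 passed, beside 7.9% of all probes (3.38% higher and 4.53% lower). None of the members passed after Benjamini-Hochberg adjustment over all 37005 probes in limma, where the lowest adjusted p was 0.111, for Epha3. Across the whole array 1 probe did, 0.0027% of those tested. The median difference of the 28 genes was -0.017, with 13 higher and 15 lower, and that of all genes was 0.013.

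**Figure D1:**
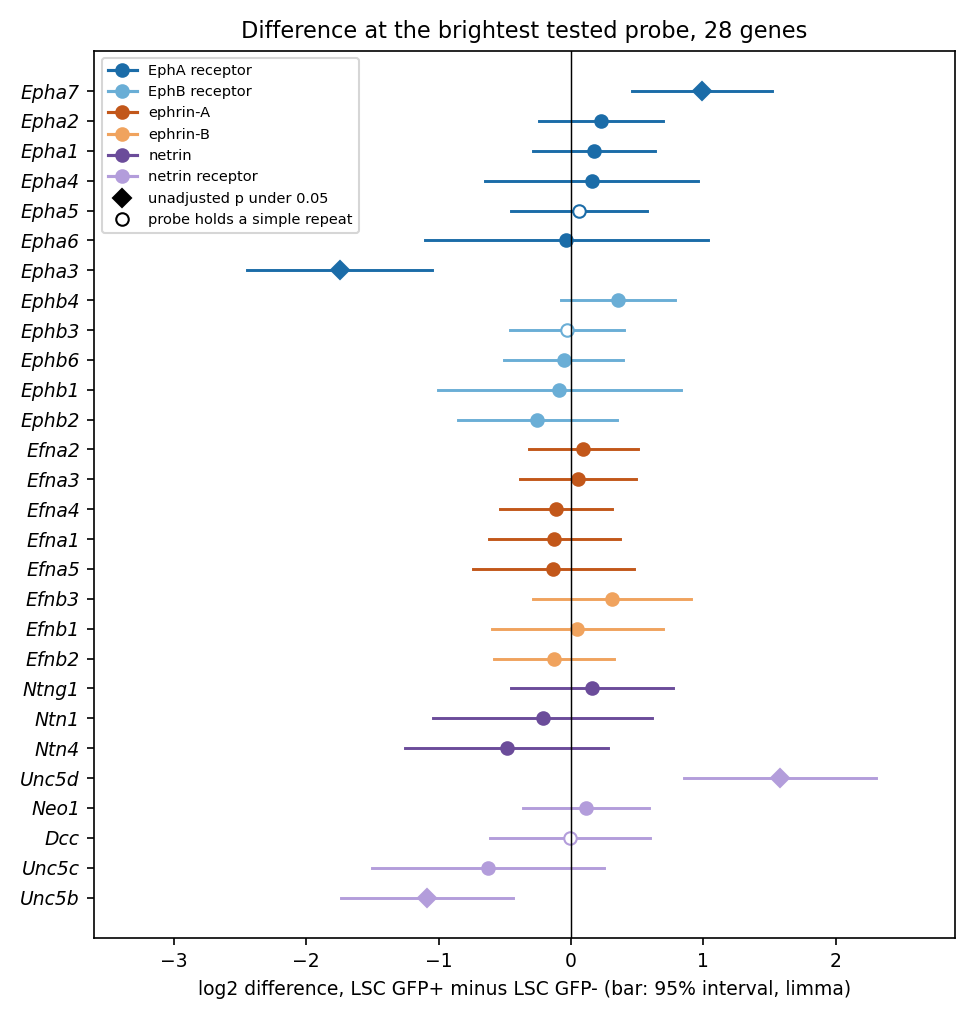
Differences of the 28 tested guidance genes at the brightest probe, in log2 units (LSC GFP+ minus LSC GFP-, n = 3 arrays each). Points are the fitted differences, bars the 95% intervals from limma and colours the classes. Diamonds mark the 4 genes at an unadjusted p under 0.05, which lie at -1.75 (Epha3), -1.09 (Unc5b), 0.99 (Epha7) and 1.58 (Unc5d), and open points mark the 3 probes with a simple repeat.

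The ligands of the Eph receptors were the most even classes. None of the 5 ephrin-A genes passed the test, and their differences ran from -0.13 for Efna5 to 0.093 for Efna2. For each of the 5 genes the 95% interval lay within 2-fold in either direction (1 log2 unit). The same held for the 3 ephrin-B genes, with differences of -0.13 for Efnb2, 0.047 for Efnb1 and 0.31 for Efnb3. Efnb2, best known as a marker of arteries, had a pair of tested probes that differed by -0.13 (95% interval -0.58 to 0.32) and 0.095 (-0.31 to 0.50). A 2-fold difference between the populations in these ligands thus lay outside the intervals, while smaller ones did not.

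Among the EphA receptors the 2 genes that passed moved in opposite directions. Epha3, a receptor that mainly binds ephrin-A ligands, had levels of -2.47, -2.78 and -3.24 in LSC GFP+ replicates 1, 2 and 3 and of -0.74, -1.60 and -0.91 in LSC GFP- replicates 1, 2 and 3. Every GFP+ sample was below every GFP- sample, and the probe was well above background on all 6 arrays. The mean was -2.83 ± 0.39 (SD, n = 3) against -1.08 ± 0.46, which made Epha3 3.36-fold lower in LSC GFP+ cells (log2 difference -1.75, SE 0.30, limma adjusted p = 0.111). The size depended on the background correction, with a difference of -1.12 after normexp, which also passed. Epha3 had the largest difference of the 28 genes in either direction, and it was lower by 1.73, 1.18 and 2.33 within replicates 1, 2 and 3.

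Epha7, another receptor for ephrin-A, was higher in LSC GFP+ cells. Its brightest probe read 2.71, 2.64 and 2.36 in LSC GFP+ replicates 1, 2 and 3 and 1.93, 1.46 and 1.34 in the LSC GFP- replicates. The populations did not overlap, and the 3 GFP+ samples spread less than the 3 GFP- samples (SD 0.19 and 0.31). The difference was 0.99 (SE 0.23, 95% interval 0.46 to 1.52), a 1.99-fold higher level (limma adjusted p = 0.201).

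The probes upstream in Epha7 were less clear. The dimmer one read -0.08, -0.50 and -0.87 in the LSC GFP+ replicates and -1.12, -1.48 and -0.82 in the LSC GFP- replicates. The populations overlapped in replicate 3, where the GFP- sample was slightly above the GFP+ one. Its difference of 0.66 was just past the threshold (SE 0.27, limma adjusted p = 0.607). It was not past it with the replicate number as a block or in the methods' t-test, nor when replicate 1 (0.45) or 2 (0.66) of LSC GFP+ cells or replicate 1 (0.66) or 2 (0.49) of LSC GFP- cells was left out. The dimmest read -3.56, -5.27 and -3.64 in the LSC GFP+ replicates and -5.62, -4.55 and -4.72 in the LSC GFP- replicates. It was well above background in GFP+ replicates 1 and 3 and in no GFP- sample, and was not tested. EphA7 is known in full-length and in shortened forms, and whether the probes followed different forms was not tested.

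**Figure D2:**
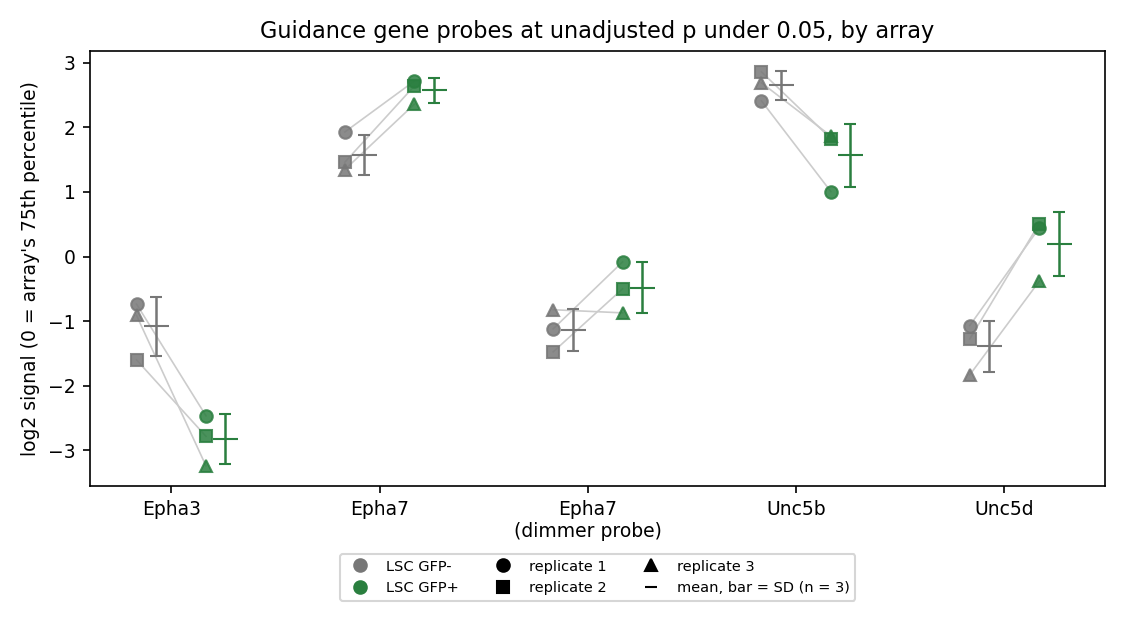
Levels of the 5 guidance gene probes at an unadjusted p under 0.05 on each of the 6 arrays, in log2 units from the array's 75th percentile. Grey is LSC GFP- and green LSC GFP+, symbols give the replicate, thin lines join samples of the same number, and bars are mean ± SD (n = 3). The populations overlap only at the dimmer Epha7 probe (-0.87 to -0.08 in GFP+ and -1.48 to -0.82 in GFP-), and heights are not comparable between probes.

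The other 5 tested EphA genes did not pass, with differences from -0.033 (Epha6) to 0.23 (Epha2). Their precision differed: the interval for Epha2 was -0.24 to 0.70 and for Epha6, a dim probe, -1.10 to 1.04. The remaining EphA receptors were at or near background. Epha8 was not well above it on any array. Epha10 was above it in LSC GFP+ replicate 1 alone, with levels of -3.90, -5.85 and -4.41 in the GFP+ and -5.36, -4.57 and -4.45 in the GFP- replicates, and the populations overlapped.

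No EphB receptor passed the test, and the 5 differences lay between -0.25 for Ephb2 and 0.36 for Ephb4. Ephb4, whose main ligand is ephrin-B2, read 2.21, 2.34 and 2.25 in the LSC GFP+ replicates and 1.87, 1.78 and 2.08 in the LSC GFP- replicates at its brightest probe. The GFP+ samples were all above the GFP- samples, which made Ephb4 the fifth member whose populations did not overlap, 17.9% of the 28 genes beside 14.7% of all genes. The difference was 0.36 (SE 0.19, 95% interval -0.076 to 0.79, limma adjusted p = 0.762), and of the alternatives only the methods' t-test took it past the threshold. That test called 5 guidance genes, beside 9.56% of all genes. The second Ephb4 probe differed by 0.23 with overlap. Ephb6, a receptor whose kinase domain is inactive, had probes with differences of -0.053 and 0.063.

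Of the netrins, none passed the test. Ntn1, the classical secreted netrin, had a bright probe with levels of 4.05, 3.04 and 3.31 in the LSC GFP+ replicates and 3.76, 4.19 and 3.1 in the LSC GFP- replicates. These overlapped widely, and the difference of -0.21 had an interval of -1.04 to 0.61. On none of the 6 arrays did the other Ntn1 probe rise well above background. Ntn4, a basement membrane netrin, read -4.06, -4.51 and -3.38 in the GFP+ and -3.57, -3.83 and -3.09 in the GFP- replicates, and it was not above background in GFP+ replicate 2. It was lower in GFP+ cells in each of the 3 pairs of the same number, but the populations overlapped (difference -0.49, interval -1.25 to 0.28) and the test was passed only with the replicate number as a block or without LSC GFP+ replicate 3 (-0.79). With the block 6 guidance genes passed, Unc5c being the other addition, beside 16.6% of all genes. Of the netrin-G genes, whose products are anchored in the membrane, Ntng1 differed by 0.16 (-0.46 to 0.77) at its tested probe. Ntng2 was above background in LSC GFP- replicate 3 alone, with levels of -4.50, -6.44 and -4.86 in the GFP+ and -4.75, -5.18 and -4.29 in the GFP- replicates.

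The UNC5 receptors were again divided. Unc5b, which is known from endothelial cells as well as from neurons, read 1.0, 1.82 and 1.86 in the LSC GFP+ replicates and 2.41, 2.86 and 2.69 in the LSC GFP- replicates. Every GFP+ sample was below every GFP- sample, with GFP+ replicate 1 the lowest. The means of 1.56 ± 0.49 and 2.65 ± 0.23 (SD, n = 3) made Unc5b 2.12-fold lower in LSC GFP+ cells (difference -1.09, SE 0.28, limma adjusted p = 0.259). Without GFP+ replicate 1 the difference was -0.81 and still passed.

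Unc5d, which also binds the adhesion proteins of the FLRT family, went the other way. It read 0.44, 0.51 and -0.38 in the LSC GFP+ replicates and -1.07, -1.28 and -1.83 in the LSC GFP- replicates. The populations did not overlap, and replicate 3 was the lowest in both. The difference of 1.58 (SE 0.31, 95% interval 0.86 to 2.31) was a 2.99-fold higher level in LSC GFP+ cells (limma adjusted p = 0.145). It was the largest increase of the 28 genes, and within replicates 1, 2 and 3 it was 1.51, 1.78 and 1.45.

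Unc5c read -2.60, -3.52 and -4.03 in the LSC GFP+ replicates and -2.35, -3.09 and -2.83 in the LSC GFP- replicates. It was lower in GFP+ cells within each pair of the same number but overlapped between the populations, and its difference of -0.63 (interval -1.50 to 0.25) passed only with the block or without LSC GFP+ replicate 1 (-1.02). Unc5a was above background in LSC GFP- replicates 2 and 3 alone, at -4.18 and -4.04, with -6.12 in GFP- replicate 1. Its levels of -4.55, -4.59 and -4.18 in the GFP+ replicates lay within that range. Neo1, which encodes neogenin, a receptor for netrins and for repulsive guidance molecules, differed by 0.11 with an interval of -0.36 to 0.59.

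The tested probes of 3 member genes held a simple sequence repeat, defined as a run of at least 20 bases with a unit of at most 4. They were the Epha5 and Ephb3 probes printed above and 1 Dcc probe with a GAA run, the only one of the 45 member probes placed on another chromosome than its gene. Epha5 read 9.42, 9.12 and 9.12 in the LSC GFP+ and 9.41, 9.21 and 8.85 in the LSC GFP- replicates. Ephb3 read 9.28, 9.06 and 9.26 and then 9.35, 9.22 and 9.12. These values ran from 8.85 to 9.42 over the arrays. They lay among those of the array's 52 probes with a TG run, whose mean levels ran from 8.12 to 9.94 with a median of 9.26. The Dcc probe read 2.01, 1.73 and 1.39 in the GFP+ and 1.84, 2.0 and 1.32 in the GFP- replicates.

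Probes without the run in the same genes read otherwise. The other Epha5 probe was well above background only in replicate 1 of each population, with levels of -2.22, -3.99 and -4.73 in the LSC GFP+ and -1.71, -4.51 and -4.85 in the LSC GFP- replicates. The other Dcc probes were at background on all arrays but 1. Ephb3 had no second probe. Of the 194 tested probes with a simple repeat on the whole array, none passed at an unadjusted p under 0.05 (0%) in limma. Whether the repeat probes measured transcripts of Epha5, Ephb3 and Dcc was not tested. Without them 25 guidance genes remained, with a median difference of -0.033 and the same 4 genes past the threshold.

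**Figure D3:**
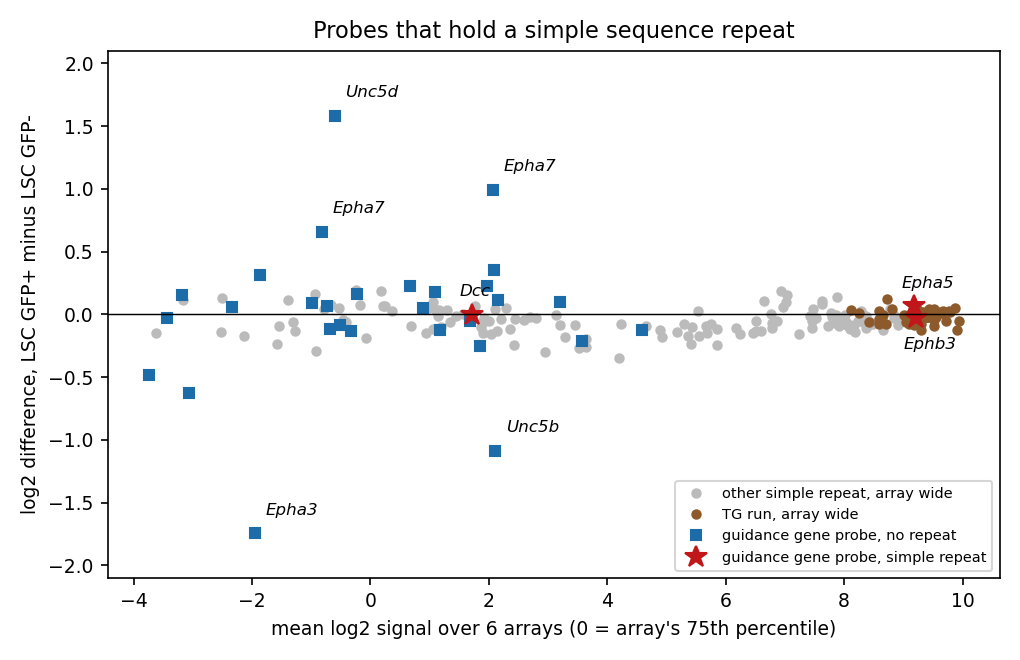
Difference (LSC GFP+ minus LSC GFP-, log2) against mean level over 6 arrays (log2 from the 75th percentile) for the 194 tested probes with a simple repeat and the 32 tested guidance gene probes. Brown points are TG runs, between 8.12 and 9.94 on the level axis, grey points other repeats, blue squares guidance probes without a repeat and red stars the Epha5, Ephb3 and Dcc probes, of which Epha5 and Ephb3 sit inside the TG group.

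Of 24 guidance genes that did not pass, 19 had a 95% interval within 2-fold in either direction. These 19 include Epha5, Ephb3 and Dcc, read at probes with a simple repeat that may not measure them. Without those genes it was 16 of 21. The 5 genes with wider intervals were Epha6, Ephb1, Ntn1, Ntn4 and Unc5c. The widest interval reached 1.07 log2 units to each side of the difference, for Epha6. The intervals of these 5 did not exclude a 2-fold difference.

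The genes that carry the signals of these receptors inside the cell, or share ligands with them, were read from a separate list of 59, of which 55 were tested. Among the 55, Arhgef15 and Itsn1 were read at probes with a simple repeat, which may not measure them, and neither passed. In LSC GFP+ cells 5 passed as higher and 1 as lower, together 10.9% beside 9.34% of all genes. The median difference of the 55 was 0.070, with 36 means higher and 19 lower. Ablim1, an actin-binding LIM protein related to the nematode netrin pathway protein UNC-115, was 0.10, -0.11 and -0.60 in the LSC GFP+ and -1.13, -1.38 and -2.06 in the LSC GFP- replicates. The populations did not overlap, and the difference was 1.32 (SE 0.30, limma adjusted p = 0.199). Bmp7, a growth factor, differed by 0.77, Fyn, a kinase of the Src family, by 0.67, Dapk1, a death-associated kinase linked to UNC5B, by 0.60 and Myo10, a motor that carries DCC in filopodia, by 0.48. Ptpn13, a phosphatase recruited to ephrin-B, was the gene that was lower (-0.46, limma adjusted p = 0.631). Draxin, Mmp9, Ngef and Trim67 were too dim to test. With the replicate block 12 of the 55 passed, 7 higher and 5 lower, or 21.8% beside 16.6% of all genes, and without LSC GFP- replicate 2 or LSC GFP- replicate 3 only 2 did.

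The lower values of Epha3 and Unc5b in LSC GFP+ cells went with those of the smooth muscle and stromal markers. Smooth muscle Acta2 differed by -2.13 and Myh11 by -2.01, and stromal Col1a1 by -2.18 and Pdgfra by -2.36. The summed signal of the stromal list was 19.9 to 26.2 in LSC GFP+ cells and 22.0 to 62.9 in LSC GFP- cells, with overlap. In LSC GFP+ cells most of this sum came from Dcn (3.37, 3.76 and 3.97), the stromal marker that was higher there. The overlap, and the order of the stromal sums among the LSC GFP+ replicates, depend on Dcn. Within the LSC GFP- samples the smooth muscle and stromal sums were lowest in replicate 2 (21.4 and 22.0), as was Epha3 (-1.60), while Unc5b was highest there (2.86). Within the LSC GFP+ samples Epha3 was lowest in replicate 3 (-3.24) and highest in replicate 1 (-2.47). The stromal sum, whose order there depends on Dcn, was highest in replicate 3 (26.2) and lowest in replicate 1 (19.9). The smooth muscle sum was highest in LSC GFP+ replicate 1 (11.1), as was Epha3, while Unc5b was lowest there. That sum was lowest in LSC GFP+ replicate 2 (7.65), where Epha3 was not. Of 8 tested endothelial markers 1, Vwf, was lower (-0.82), which is 12.5% beside 9.34% of all genes. The defining markers Cdh5, Emcn and Tie1 were too dim to test. The endothelial sum, most of it from Kdr, was 7.07 to 7.80 in GFP+ and 7.30 to 9.39 in GFP- cells. Epha7 and Unc5d were higher in LSC GFP+ cells, as were the basal markers. Without Trp63, measured by a probe with a simple repeat, the basal sum was 125 to 154 in GFP+ and 81.2 to 95.6 in GFP- cells. Within both populations that sum was highest in replicate 3 (154 in GFP+ and 95.6 in GFP-). Epha7 at its brightest probe (2.36 and 1.34) and Unc5d (-0.38 and -1.83) were lowest there. The part of other cell types in these results was not tested.

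**Figure D4:**
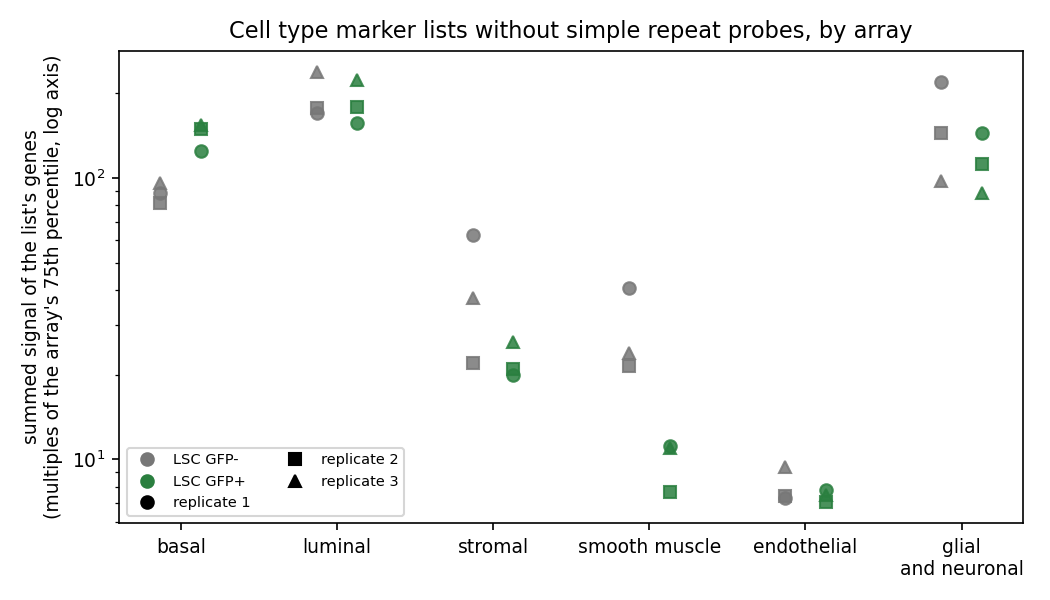
Summed signal of 6 cell type marker lists on each array, over the brightest probe of each gene and without the probes that held a simple repeat (Trp63 and Snap25), in multiples of the array's 75th percentile on a log axis, with grey for LSC GFP- and green for LSC GFP+ and a symbol per replicate. The populations separate for the basal list (125 to 154 in GFP+, 81.2 to 95.6 in GFP-) and the smooth muscle list (7.65 to 11.1 and 21.4 to 40.5) and overlap for the others. The overlap of the stromal list depends on Dcn, which gives most of its sum in GFP+ cells.

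None of the 11 tested glial and neuronal markers passed in limma, and all 11 means were lower in LSC GFP+ cells. Among the 11, Snap25 was read at a probe with a simple repeat. With the replicate number as a block 6 passed, all of them lower in LSC GFP+ cells, namely Nefl, Nefm, Prph, Stmn2, Tubb3 and Sox10. This was 54.5% of the tested markers, beside 16.6% of all genes with the block. The spread between replicates was wide: Stmn2, a neuronal microtubule regulator, read 0.27, -6.29 and -1.03 in the GFP+ and 2.80, -2.03 and 0.08 in the GFP- replicates, highest in replicate 1 and lowest in replicate 2 of both. Of the 4 guidance genes that passed, Epha3 had that order in the LSC GFP- samples (-0.74, -1.60 and -0.91) but not in the LSC GFP+ samples. Epha7 at its brightest probe, Unc5b and Unc5d had it in neither population. The second Epha5 probe, high in both replicates 1, shared the high end of Stmn2 but was lowest in replicate 3. The part of glial or neuronal RNA in these values was not tested.

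**Figure D5:**
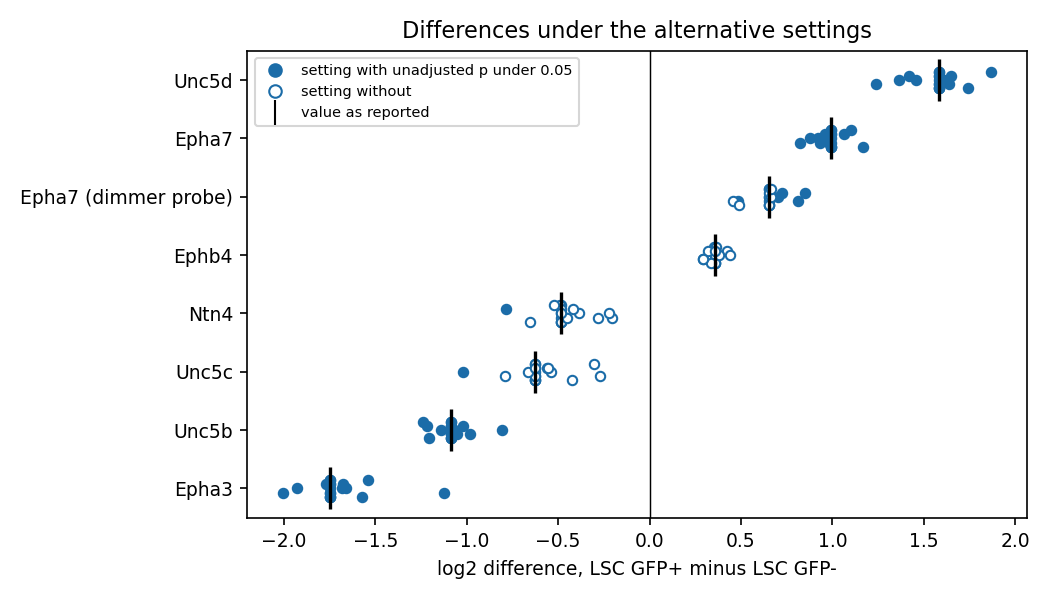
Differences (LSC GFP+ minus LSC GFP-, log2) of 8 guidance gene probes under the alternative settings of the processing and the test, one point per setting, with a bar at the value as reported. Filled points are settings with an unadjusted p under 0.05: Epha3 (-2.01 to -1.12), Epha7 (0.82 to 1.17), Unc5b (-1.24 to -0.81) and Unc5d (1.24 to 1.87) are filled throughout, the others in part.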

How the data were processed

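Total RNA of 6 samples, 3 LSC GFP+ and 3 LSC GFP-, was amplified (Ovation Pico WTA), labeled with Cy3 and hybridised by the authors to Agilent mouse arrays on 1 slide. The deposited scanner files hold an intensity per spot, from which Feature Extraction (version 11.0.1.1 per the file headers, 10.7.3.1 per the submitters' processing notes) had subtracted background and a spatial trend, with no normalization between arrays. The deposited table of the whole series holds the same intensity values rounded, and was used as an alternative.

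Outlier spots were dropped, spots of a probe averaged, and log2 signals scaled to each array's 75th percentile. A probe entered the test if it was well above background on each of the 3 arrays of at least 1 population. The test was limma 3.58.1 in R 4.3.3 (lmFit and eBayes, two-sided, no block), with adjustment over all probes. A gene is its brightest tested probe. The call is an unadjusted p under 0.05, since the methods name that threshold and mention no adjustment. An exact permutation test of 3 against 3 cannot go below p = 0.1. Nothing in the labels says whether samples came from separate animals. The study calls the 3 samples of sorted cells independent without naming the animals. The p-values thus set a difference against the spread between these samples only. The number of arrays limits the precision.

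The labels give both populations the numbers 1 to 3. Deviations from the group means correlated across probes by 0.43, 0.28 and 0.67 for samples of the same number, each over 0.1. On this ground samples of the same number were treated as pairs, which the labels do not state.

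The members, the partner list and the marker lists were chosen with earlier results of these data known. Values on every array are given for members at an unadjusted p under 0.05 or without overlap, and for those above background in 1 population only. Unc5c, Ntn1, Ntn4, the repeat probes, Stmn2 and marker genes that are named lie outside that rule, chosen once the values were known. Alternatives were quantile normalization, normexp (offset 50), the rounded table, the array median as scaling point, the methods' t-test, 3 filters on dim probes, the replicate block, an intensity trend, the mean over a gene's probes and each array left out. Leaving out probes with a simple repeat was added after seeing the data. The analysis was tested on simulated arrays with noise independent between arrays, so a shared effect of the replicate number was not covered. Probe positions are those of the files (mm9), and 26582 probes matched RefSeq by accession.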

Additional observations from a re-analysis of the deposited data

How the results depend on the processing

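Of the guidance genes, Epha3 (-2.01 to -1.12), Epha7 at its brightest probe (0.82 to 1.17), Unc5b (-1.24 to -0.81) and Unc5d (1.24 to 1.87) kept their direction and an unadjusted p under 0.05 in all 18 alternatives, and no difference of the 8 guidance probes followed changed sign. The dimmer Epha7 probe passed in 9 of 17. Both counts of alternatives include leaving out the probes with a simple repeat, which did not change the values of these probes. Over the arrays left out in turn, 4 to 5 guidance genes, 4 to 6 of their probes, 2 to 5 partner genes and 2283 to 4061 of all probes passed. With the replicate block 5480 of all probes passed in place of 2925, and 12 partner genes in place of 6. The median difference of the guidance genes was -0.10 to 0.062 over the arrays left out, so its sign is not fixed by these samples. It was 0.062 without LSC GFP- replicate 2 and -0.10 without LSC GFP- replicate 3. Scaled by the array median it was 0.052, but that scaling also raised the median of all genes, to 0.082. Without LSC GFP- replicate 2 or replicate 3, 2 partner genes passed. The block took Ntn4 and Unc5c past the threshold and the dimmer Epha7 probe out, and changed the call of no other guidance probe. It also took 6 of 11 glial and neuronal markers past the threshold, in place of none (54.5%, beside 16.6% of all genes with the block). Ntn4 also passed without LSC GFP+ replicate 3 (-0.79). After normexp correction Ntn4 was at -0.20 and Unc5c at -0.27. The cause of these shifts was not tested.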
